A study of Homo sapiens with 12 samples.

Results

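Readouts of canonical Wnt signalling and of the intestinal stem cell state, 10 genes in all, were followed in HT29 cells given an herbal extract. The genes were LGR5, ASCL2, AXIN2, MYC, RNF43, ZNRF3, NKD1, LEF1, TCF7 and SP5, taken as a list of symbols and matched to the Ensembl identifiers of the count table. All 10 symbols were found among the 60675 identifiers, and 9 of the 10 were among the 15374 genes with enough counts to be tested. LEF1 was left out of the tests because its libraries held at most 4 counts.

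HT29 is a human colorectal adenocarcinoma line, and as background it carries truncated APC. The extract was a hot-water extract of Aconitum carmichaeli Debeaux (ACD), the plant whose processed root is used as aconite in East Asian medicine. Cells received ACD for 24 h at 20 µg/mL (low), 100 µg/mL (medium) or 500 µg/mL (high), and the controls received the vehicle, PBS with 2% DMSO. Each group had 3 libraries from the same line, without any genetic change made for the study, and nothing in the labels says that the 3 came from separate cultures, so the p-values measure the spread between these libraries.

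In the canonical Wnt pathway, a complex that contains AXIN and APC marks β-catenin for destruction, and Wnt ligands switch that complex off. Stabilised β-catenin then joins TCF/LEF proteins on DNA and turns on target genes, several of which feed back on the pathway. In the intestine this signal maintains the stem cells at the crypt base, which are marked by LGR5 and ASCL2. In cells with truncated APC the complex works poorly, so that targets are expressed without a ligand.

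Sequencing depth ran from 15941255 to 33866644 expected counts per library (median 23833237). Levels are given as CPM, which is a gene's count divided by the library total and scaled between libraries by TMM. A gene was called where its fold change exceeded 1.5 and the adjusted p of edgeR was below 0.05. All 10 markers of colorectal epithelium had enough counts to be tested, EPCAM, KRT8 and CDX1 among them, the last with 19 to 50 counts per library. Of 12 markers of other cell types, 4 had enough counts to be tested (LYZ, CD68, PECAM1 and COL1A1, the last with 5 to 42 counts per library), while PDGFRA and COL1A2 had 0 counts in all 12 libraries. High-dose replicate 2 stood apart from the rest. Measured over 10626 genes above 5 CPM, its log2 differences from the other replicates of the group had an SD of 0.502, where the other 11 libraries had 0.102 to 0.293. The mitochondrial rRNA gene MT-RNR1 took between 2.73% and 2.89% of counts at the high dose and between 0.127% and 0.138% in the vehicle. Scaling without mitochondrially encoded genes was among the alternative fits, and no member was called under it. Beyond that, the part of MT-RNR1 in the results was not tested.

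No member was called at any dose. The count was 0 of 9 at 500 µg/mL, where 2.93% of all tested genes were called, 0 of 9 at 100 µg/mL (0.676% of all genes) and 0 of 9 at 20 µg/mL (0.111%). At an unadjusted p under 0.05 the counts were, in the same order, 2, 3 and 0 of 9, against 20.1%, 11.7% and 7.95% of all genes. The median log2 fold change of the 9 was −0.04, −0.09 and −0.06, beside 0.01, −0.01 and 0.00 over all genes. For 6, 6 and 7 of the 9 members, in that order, the 95% interval of the fold change stayed within 1.5-fold in both directions. The 3 comparisons share the vehicle libraries. In RNA pooled from whole cultures, a smaller share of cells expressing a gene and less RNA of it per cell cannot be told apart.

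**Figure D1:**
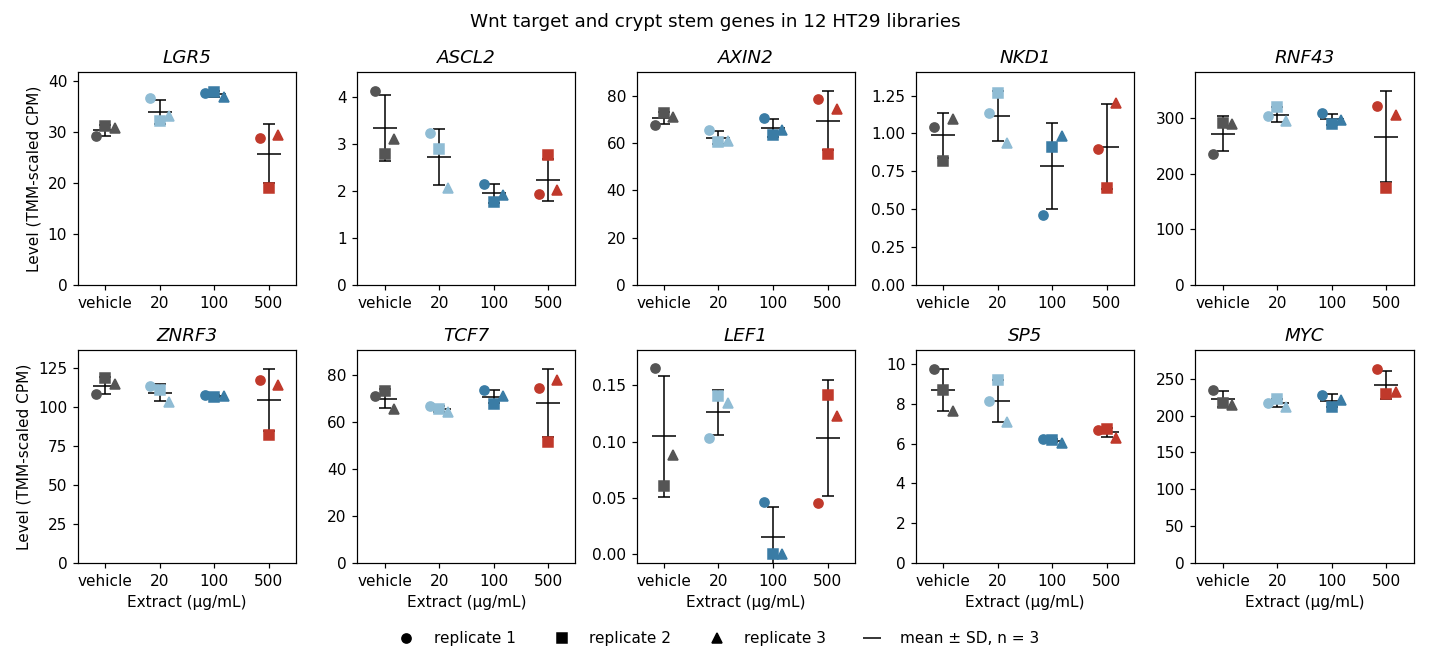
TMM-scaled CPM of each of the 10 genes (y axis, 1 panel per gene, each with its own scale) against the extract dose in µg/mL (x axis), with 3 libraries per group shown by marker shape and the mean ± SD (n = 3) as bars. The square at 500 µg/mL, high-dose replicate 2, lies below the other 11 libraries for LGR5, AXIN2, RNF43, ZNRF3 and TCF7, and SP5 and ASCL2 lie lower at 100 and 500 µg/mL than in the vehicle.

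In vehicle-treated cells the members covered a wide range of expression. Per kilobase of the annotated canonical transcript, the mean level was 60.3 CPM ± 7.12 (SD, n = 3) for RNF43 and 59.7 CPM ± 2.96 for MYC. TCF7 followed at 21.2 CPM ± 1.18 per kilobase, then AXIN2 at 16.6 CPM ± 0.611 and ZNRF3 at 16.6 CPM ± 0.782. RNF43 and MYC, and likewise AXIN2 and ZNRF3, did not differ beyond their spread. Lower still were LGR5 at 6.62 CPM ± 0.232 per kilobase, SP5 at 4.25 CPM ± 0.512 and ASCL2 at 2.25 CPM ± 0.470, so both classical crypt stem markers sat below the feedback genes AXIN2, RNF43 and ZNRF3 and above NKD1. NKD1 was at 0.0580 CPM ± 0.00874 per kilobase of its 17039-base transcript, with 19 to 27 counts per vehicle library. LEF1, at 0.0292 CPM ± 0.0152 per kilobase and 2 to 3 counts per vehicle library, was close to the limit of detection.

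LGR5 (ENSG00000139292, GRCh38 chr12:71439798-71586310, plus strand) encodes the R-spondin receptor that marks crypt base stem cells. Its level was 29.1, 31.1 and 30.7 CPM in the vehicle libraries and 36.6, 32.1 and 33.2 CPM at the low dose. The medium-dose libraries had 37.6, 37.9 and 36.9 CPM and the high-dose libraries 28.8, 19.0 and 29.4 CPM. Every low-dose and every medium-dose library lay above every vehicle library, the 3 medium-dose libraries were the highest of all 12, and the high-dose libraries overlapped with the vehicle. The log2 fold change was 0.16 ± 0.13 (SE) for 20 µg/mL (edgeR adjusted p = 0.808), 0.30 ± 0.13 for 100 µg/mL (adjusted p = 0.384) and −0.22 ± 0.13 for 500 µg/mL (adjusted p = 0.375). None of these passed the threshold. Without high-dose replicate 2, the medium-dose value remained 0.30 with an edgeR adjusted p of 0.00672, since all groups share 1 estimate of the spread, and the high-dose value was −0.06 (adjusted p = 0.585).

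The difference between doses was larger for LGR5 than its difference from the vehicle at any dose. All 3 high-dose libraries lay below all 3 medium-dose and all 3 low-dose libraries. The high-dose level was lower than the medium-dose level by a log2 fold change of −0.53 ± 0.13 (edgeR adjusted p = 0.112) and lower than the low-dose level by −0.39 ± 0.13 (adjusted p = 0.158). Without high-dose replicate 2 these values were −0.36 (edgeR adjusted p = 0.00684) and −0.22 (adjusted p = 0.0610), which is below a 1.5-fold change in both cases. Across all members, 0 of 9 were called between the high and medium doses (0.488% of all genes) and 0 of 9 between the high and low doses (1.58%). At an unadjusted p under 0.05 there were 1 and 2 members, beside 9.85% and 15.4% of all genes.

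ASCL2 (ENSG00000183734, chr11:2268498-2270588, minus strand) encodes a basic helix-loop-helix factor that controls the stem cell programme of the crypt. Its level was 4.13, 2.79 and 3.12 CPM in the vehicle and 3.23, 2.89 and 2.06 CPM at the low dose. It was 2.16, 1.76 and 1.92 CPM at the medium dose and 1.94, 2.76 and 2.03 CPM at the high dose. All medium-dose and all high-dose libraries lay below all vehicle libraries, although high-dose replicate 2, at 2.76 CPM, lay just under vehicle replicate 2 at 2.79 CPM. These levels rest on 39 to 94 counts per library. Against the vehicle, ASCL2 had a log2 fold change of −0.27 ± 0.20 for 20 µg/mL (edgeR adjusted p = 0.800), −0.77 ± 0.21 for 100 µg/mL (adjusted p = 0.135) and −0.59 ± 0.21 for 500 µg/mL (adjusted p = 0.137). The 95% interval of its fold change was 0.428 to 0.806 with 100 µg/mL and 0.484 to 0.914 with 500 µg/mL.

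ASCL2 was the single member whose call depended on the libraries used. When high-dose replicate 2 was left out, it was called at 100 µg/mL, with a log2 fold change of −0.76 (edgeR adjusted p = 0.0217, 1.59% of all genes called), and at 500 µg/mL, with −0.72 (adjusted p = 0.0234, 4.9% of all genes called). With edgeR fitted to the vehicle and the medium dose alone it was also called at 100 µg/mL, with −0.76 (adjusted p = 0.0385, 1.28% of all genes called). In an alternative chosen after seeing the data, which leaves out vehicle replicate 1, low-dose replicate 3 and high-dose replicate 2, the low-dose value was 0.060, the medium-dose value −0.60 (edgeR adjusted p = 0.0285, called, as were 1.55% of all genes) and the high-dose value −0.56 (adjusted p = 0.0343, under 1.5-fold). In those 9 libraries ASCL2 was also called lower at the high than at the low dose, with −0.62 (adjusted p = 0.0297, 2.34% of all genes called). Vehicle replicate 1 held the highest ASCL2 level of the 12 libraries.

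SP5 (ENSG00000204335, chr2:170715337-170718078, plus strand) encodes a zinc finger factor of the Sp family and is a direct target of β-catenin with TCF/LEF. Of the 10 members, MYC was left out of the promoter search. Of the rest, 4 (SP5, LEF1, TCF7 and RNF43) had a promoter window in the RefSeq table used here (GRCh38.p14). Only SP5 is printed, because its libraries lay below the vehicle at 2 doses. Its window also holds the most TCF/LEF-type motifs among these 4 members. The sequence covers the 250 bases before the start site, chr2:170715087-170715336 on the plus strand, with the motif matches in capitals.

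SP5: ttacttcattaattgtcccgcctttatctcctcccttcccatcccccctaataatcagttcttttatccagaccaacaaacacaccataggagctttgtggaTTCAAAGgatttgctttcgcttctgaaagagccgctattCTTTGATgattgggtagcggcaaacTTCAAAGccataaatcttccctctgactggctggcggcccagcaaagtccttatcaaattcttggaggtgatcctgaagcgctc

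The motifs searched on both strands were CTTTGAAN, CTTTGATN, CTTTGTAN and CTTTGTTN, where N is any base, printed in lower case. In SP5 the matches began at positions −148, −109 and −84 from the start site, the first and the last of them on the minus strand. Of 35116 promoter windows of the same length, 11.9% held at least 1 match. The second of the TCF7 windows held 1, and the windows of LEF1 and RNF43 held 0. A match is a description of the letters and not of a bound site.

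The SP5 level was 9.74, 8.73 and 7.65 CPM in the vehicle and 8.14, 9.20 and 7.12 CPM at the low dose. It was 6.24, 6.17 and 6.06 CPM at the medium dose and 6.71, 6.72 and 6.30 CPM at the high dose. Each medium-dose and high-dose library lay below each vehicle and each low-dose library, and the medium-dose libraries were the lowest, below all high-dose libraries. Its log2 fold change was −0.09 ± 0.11 for 20 µg/mL (edgeR adjusted p = 0.875), −0.50 ± 0.11 for 100 µg/mL (adjusted p = 0.0701) and −0.40 ± 0.12 for 500 µg/mL (adjusted p = 0.0637), the smallest adjusted p of the members at both of the upper doses. Leaving out high-dose replicate 2 gave −0.49 (adjusted p = 0.0119) and −0.42 (adjusted p = 0.0243), still under a 1.5-fold change. High-dose replicate 2 did not stand apart for SP5, with a log2 difference of 0.05 from the other high-dose libraries.

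**Figure D2:**
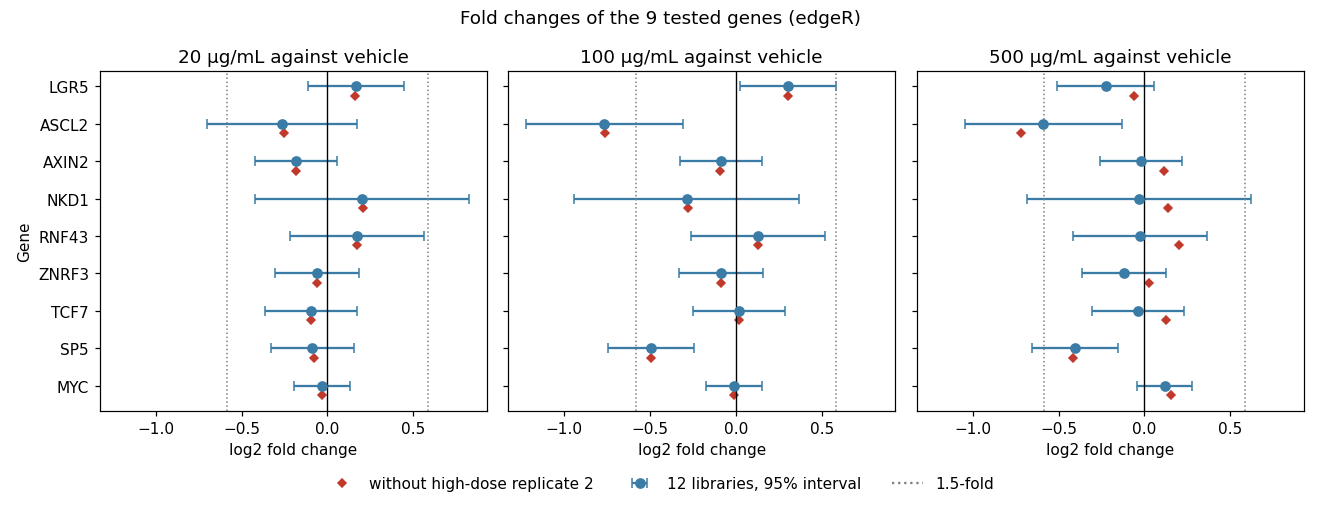
Log2 fold change (x axis) of the 9 tested genes (y axis) against vehicle at each dose, with the 95% interval from the edgeR fit of 12 libraries (blue) and the value without high-dose replicate 2 (red). Dotted lines mark 1.5-fold, and the intervals of SP5 and ASCL2 lie below 0 at 100 and 500 µg/mL, while that of LGR5 lies above 0 at 100 µg/mL.

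AXIN2 (ENSG00000168646, chr17:65528563-65561648, minus strand) encodes a scaffold of the destruction complex and is among the most widely used readouts of β-catenin activity. Its level was 67.8, 72.9 and 71.2 CPM in the vehicle and 65.4, 60.6 and 60.9 CPM at the low dose. It was 70.4, 63.3 and 65.6 CPM at the medium dose and 78.7, 55.4 and 74.5 CPM at the high dose. The low-dose libraries lay below all vehicle libraries, the medium dose overlapped with the vehicle, and the high dose had both the highest and the lowest library of the 12. AXIN2 had a log2 fold change of −0.18 ± 0.11, −0.09 ± 0.11 and −0.02 ± 0.11 at the low, medium and high doses (edgeR adjusted p = 0.746, 0.808 and 0.955). At the high dose the 95% interval of the fold change ran from 0.836 to 1.16.

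Between the high and low doses AXIN2 differed by a log2 fold change of 0.16 ± 0.11 (edgeR adjusted p = 0.495). Without high-dose replicate 2 this was 0.30 (adjusted p = 0.00622). SP5 in the same comparison had −0.32 ± 0.11 (edgeR adjusted p = 0.198) and −0.34 without that library (adjusted p = 0.113). The sign of the AXIN2 value against the vehicle at the high dose also turned, to 0.12 (adjusted p = 0.210), when that library was left out.

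NKD1 (ENSG00000140807, chr16:50548396-50649249, plus strand) encodes a Dishevelled-binding feedback inhibitor. Its level was 1.05, 0.818 and 1.10 CPM in the vehicle, 1.13, 1.27 and 0.940 CPM at the low dose, 0.459, 0.914 and 0.983 CPM at the medium dose and 0.901, 0.637 and 1.20 CPM at the high dose. All doses overlapped with the vehicle, and a library held between 9 and 39 counts of NKD1. NKD1 had a log2 fold change of 0.20 ± 0.29, −0.29 ± 0.30 and −0.03 ± 0.30 at the low, medium and high doses (edgeR adjusted p = 0.890, 0.767 and 0.975). At the high dose the 95% interval of the fold change ran from 0.623 to 1.54, so a change of 1.5-fold in either direction lay within it.

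RNF43 and ZNRF3 are membrane ubiquitin ligases that remove Frizzled receptors from the cell surface and are restrained by R-spondin through LGR receptors. RNF43 (ENSG00000108375, chr17:58353676-58417595, minus strand) was at 235, 292 and 290.1 CPM in the vehicle, 304, 321 and 295 CPM at the low dose, 309, 289 and 296 CPM at the medium dose and 323, 174 and 305 CPM at the high dose. All low-dose libraries lay above all vehicle libraries, the medium dose overlapped with the vehicle because of 1 value, and high-dose replicate 2 lay lowest of the 12. RNF43 had a log2 fold change of 0.17 ± 0.18, 0.13 ± 0.18 and −0.03 ± 0.18 at the low, medium and high doses (edgeR adjusted p = 0.852, 0.832 and 0.962). The high-dose value was 0.20 when that library was left out (adjusted p = 0.0787).

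ZNRF3 (ENSG00000183579, chr22:28883572-29057488, plus strand) was at 108, 119 and 115 CPM in the vehicle, 113, 111 and 103 CPM at the low dose, 108, 107 and 107 CPM at the medium dose and 118, 82.0 and 114 CPM at the high dose. The medium-dose libraries lay just below all vehicle libraries with an SD of 0.576 CPM, and the low and high doses overlapped with the vehicle. ZNRF3 had a log2 fold change of −0.06 ± 0.11, −0.09 ± 0.11 and −0.12 ± 0.11 at the low, medium and high doses (edgeR adjusted p = 0.917, 0.816 and 0.618). Leaving out high-dose replicate 2 gave 0.03 at the high dose (adjusted p = 0.800).

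TCF7 and LEF1 encode DNA-binding partners of β-catenin. TCF7 (ENSG00000081059, chr5:134114681-134151865, plus strand) was at 71.1, 72.9 and 65.5 CPM in the vehicle, 66.7, 65.4 and 64.0 CPM at the low dose, 73.4, 67.7 and 71.1 CPM at the medium dose and 74.3, 51.2 and 77.9 CPM at the high dose. Each dose overlapped with the vehicle, and high-dose replicate 2 was again the lowest library. TCF7 had a log2 fold change of −0.10 ± 0.12, 0.02 ± 0.12 and −0.04 ± 0.12 at the low, medium and high doses (edgeR adjusted p = 0.879, 0.978 and 0.915), with a 95% interval of the fold change from 0.808 to 1.17 at the high dose. Leaving out high-dose replicate 2 gave 0.13 at the high dose (adjusted p = 0.162).

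LEF1 (ENSG00000138795, chr4:108047545-108168956, minus strand) was barely detected. The vehicle libraries held 3, 2 and 2 counts, the low dose 3, 4 and 3, the medium dose 1, 0 and 0, and the high dose 1, 2 and 4. A count of 0 allows up to 3 counts, which is 0.0979 CPM in medium-dose replicate 2 and 0.123 CPM in replicate 3, and both limits lie within the range of the vehicle libraries, 0.0606 to 0.165 CPM. LEF1 was not tested, and with at most 4 counts per library no difference is drawn from these values. These limits cover counting error only.

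MYC (ENSG00000136997) encodes the transcription factor through which β-catenin drives proliferation in colorectal tumours. Its level was 235, 217 and 215 CPM in the vehicle, 217, 223 and 212 CPM at the low dose, 228, 212 and 221 CPM at the medium dose and 263, 229 and 231 CPM at the high dose. Each dose overlapped with the vehicle, and high-dose replicate 1 was the highest library of the 12. MYC had a log2 fold change of −0.03 ± 0.07, −0.01 ± 0.07 and 0.12 ± 0.07 at the low, medium and high doses (edgeR adjusted p = 0.937, 0.975 and 0.417). The 95% interval of the fold change, 0.971 to 1.21 at the high dose, was the narrowest of the 9 members. With the 9 libraries of the alternative chosen after seeing the data, the high-dose value was 0.20 with an edgeR adjusted p of 0.00800.

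Some members did not overlap with the vehicle at a dose, as was also common over all genes. At 500 µg/mL this held for 2 of 9 members (ASCL2 and SP5), beside 22.0% of all tested genes. For 100 µg/mL it held for 4 of 9 (LGR5, ASCL2, ZNRF3 and SP5), beside 28.7%, and for 20 µg/mL it held for 3 of 9 (LGR5, AXIN2 and RNF43), beside 21.0%. With 9 members these shares are a description. SP5 and ASCL2 lay below the vehicle at both upper doses and LGR5 lay above it at both lower doses, while the feedback genes AXIN2, RNF43 and ZNRF3 did neither.

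High-dose replicate 2 was the lowest of the 12 libraries for 5 of the 9 members, as it was for 30.6% of all tested genes. Relative to the other high-dose libraries its log2 difference was −0.85 for RNF43, −0.64 for NKD1, −0.61 for LGR5, −0.57 for TCF7, −0.50 for ZNRF3 and −0.47 for AXIN2. It was −0.11 for MYC, 0.05 for SP5 and 0.46 for ASCL2. The members with the shortest canonical transcripts, ASCL2 with 1485 bases and SP5 with 2047 bases, were the 2 that were not lower there.

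**Figure D3:**
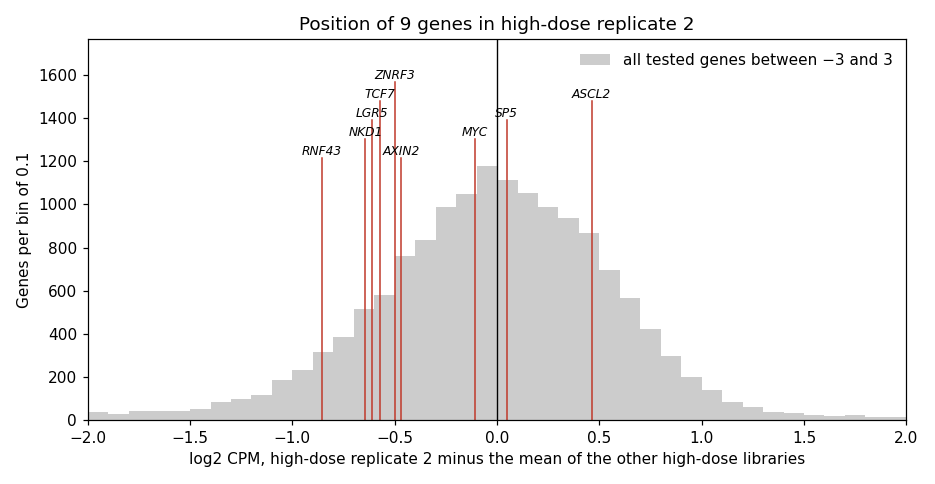
Number of tested genes (y axis, bins of 0.1) by the log2 difference between high-dose replicate 2 and the mean of the other high-dose libraries (x axis, shown from −2 to 2), with the 9 tested genes as red lines. RNF43 at −0.85 and ASCL2 at 0.46 are the outermost, and 7 of the 9 lie below 0, where all genes have a median of 0.00.

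The same split by length was present over all tested genes, 98.8% of which had a transcript length. In high-dose replicate 2 the median log2 difference was 0.31 for genes with transcripts of up to 2000 bases and −0.40 for those above 6000 bases. In vehicle replicate 1 these medians were 0.17 and −0.17, and in low-dose replicate 3 they were 0.07 and −0.09. Those of high-dose replicate 1, −0.15 and 0.20, were taken against a mean that includes high-dose replicate 2. Their opposite sign therefore does not show a separate split in that library. In vehicle replicate 1, ASCL2, SP5 and MYC had the highest of the 3 vehicle values, with log2 differences of 0.47, 0.25 and 0.12. LGR5, AXIN2, ZNRF3 and RNF43 had the lowest, with −0.09, −0.09, −0.11 and −0.31. NKD1, with the longest canonical transcript of the members (17039 bases), had 0.13, and TCF7 had 0.04. Over all genes of up to 2000 bases, the median log2 fold change was −0.09, −0.11 and −0.02 for 20, 100 and 500 µg/mL. The part of transcript length in the members' values was not tested.

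The rest of the pathway was read from lists of other genes. Among the 14 genes of the destruction complex with β-catenin itself, 0 of 14 were called at the high dose, beside 2.93% of all tested genes. Their median log2 fold change was 0.07. CTNNB1, which encodes β-catenin, had 0.13 ± 0.07 (edgeR adjusted p = 0.307), and APC had 0.05 with its sign depending on the libraries. No call was made among the 17 tested of 20 receptor and Dishevelled genes, the 8 tested of 25 genes for ligands and their release or the 13 tested of 15 nuclear partners. Each of these lists had 1 gene with an adjusted p under 0.05 but less than a 1.5-fold change, as 887 of all 15374 tested genes had this adjusted p at any fold change. It was lower among the receptors and the nuclear partners and higher among the ligands. TCF7L2, the main TCF factor of the colon, had −0.20 ± 0.10 (adjusted p = 0.327).

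Called genes appeared among the inhibitors, the other targets and the other crypt base genes, and both thresholds were met at the high dose only. Of the 6 tested of 19 inhibitors, 1 rose and 1 fell, beside 1.26% of all genes called higher and 1.68% called lower. NKD2, the paralogue of NKD1, which acts inside the cell on Dishevelled, rose from 2.88 CPM ± 0.276 in the vehicle to 6.68 CPM ± 1.39 at the high dose, a log2 fold change of 1.24 ± 0.18 (edgeR adjusted p = 0.00138). DKK1, a secreted antagonist of the LRP co-receptors, fell from 20.9 CPM ± 1.28 to 11.9 CPM ± 4.15, with −0.85 ± 0.18 (adjusted p = 0.0139). The paralogues NKD1 and NKD2 had 95% intervals of the fold change of 0.623 to 1.54 and 1.81 to 3.10 at that dose, and the difference between the genes was not tested.

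Of the 13 tested of 18 other crypt base genes, 3 were called lower and 0 higher at the high dose. Over all tested genes 1.68% were called lower and 1.26% higher. At an adjusted p under 0.05 without the 1.5-fold limit, 5 of the 13 were lower and 1 was higher. Beside this, 454 of all 15374 tested genes were lower and 433 higher. CD24, a glycoprotein anchored in the membrane, fell from 1066 CPM ± 32.0 to 679 CPM ± 62.3, a log2 fold change of −0.65 ± 0.08 (edgeR adjusted p = 4.83e-04), and since it has near-identical pseudogenes its counts depend on how reads were shared out. EPHB3, an ephrin receptor that positions cells along the crypt, fell from 24.1 CPM ± 1.21 to 14.5 CPM ± 2.16, with −0.72 ± 0.10 (adjusted p = 0.00137). SLC12A2, the sodium, potassium and chloride cotransporter of the basolateral membrane, fell from 708 CPM ± 39.5 to 459 CPM ± 54.8, with −0.62 ± 0.10 (adjusted p = 0.00235), and without high-dose replicate 2 its value of −0.53 was under 1.5-fold.

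The median log2 fold change of the 13 crypt base genes was 0.04, −0.22 and −0.29 for 20, 100 and 500 µg/mL, against 0.00, −0.01 and 0.01 over all genes. The summed level of the list was between 2894 and 3009.6 CPM in the vehicle libraries and between 2186 and 2236 CPM at the high dose. SLC12A2 and CD24 made up most of that sum. The summed level of the 18 markers of differentiated epithelium, from 2096 to 2258 CPM in the vehicle and from 1697 to 2385 CPM at the high dose, overlapped between the groups through high-dose replicate 2 alone, in which LYZ was at 1886 CPM. The other high-dose libraries, at up to 1849 CPM, lay below all vehicle libraries. LYZ made up most of this sum, at 1649 to 1830 CPM in the vehicle, so the sum mainly follows LYZ. The median log2 fold change of the 10 tested genes of this list was −0.20 for 100 µg/mL and −0.30 for 500 µg/mL. Both were close to those of the crypt base genes. At the high dose 3 of the 10 had a log2 fold change above 0 and 7 below it. Of the 10, 1 was called lower at that dose, beside 1.68% of all tested genes. That gene was TFF3, the trefoil peptide of goblet cells, with −0.67 ± 0.17 (edgeR adjusted p = 0.0387), a call that was made in 9 of 22 alternatives.

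**Figure D4:**
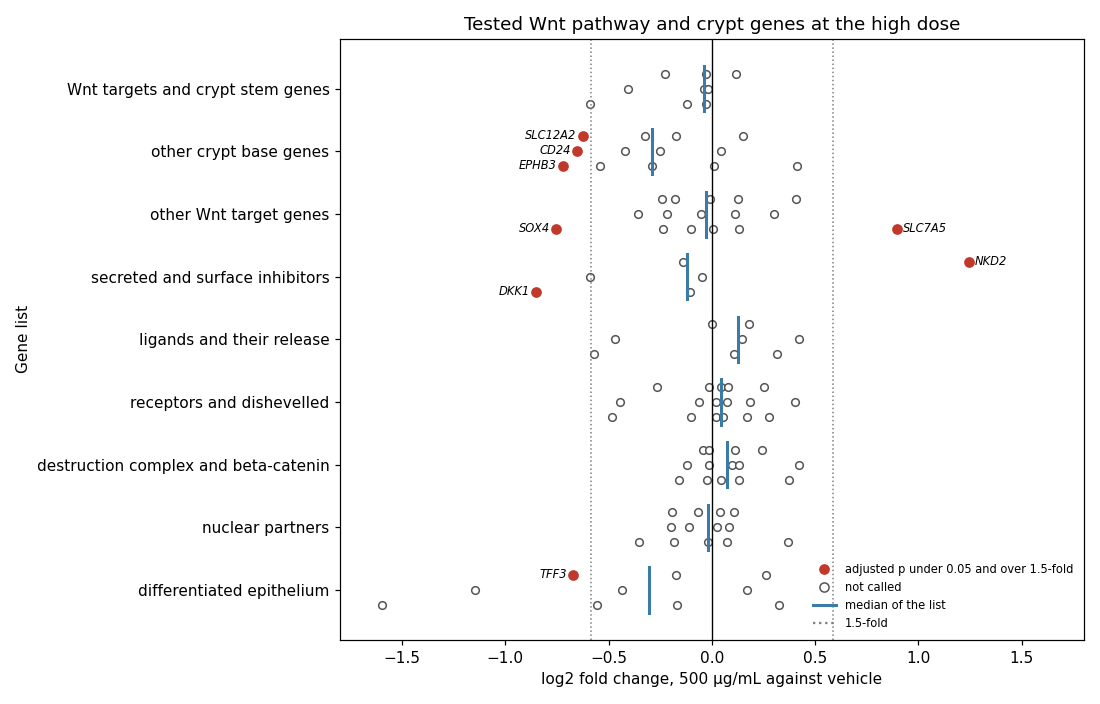
Log2 fold change at 500 µg/mL against vehicle (x axis) for the tested genes of each list (y axis), with called genes filled in red and named, and the median of each list in blue. None of the 9 Wnt target and crypt stem genes in the top row is called, and the called genes of the other lists lie among crypt base genes, other targets, inhibitors and differentiated epithelium.

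Among 16 tested of 18 other Wnt target genes, 1 was called higher and 1 lower at the high dose. Beside this, 1.26% of all tested genes were called higher and 1.68% lower. SOX4, a transcription factor of progenitor cells, fell from 163 CPM ± 22.7 to 96.2 CPM ± 10.6, a log2 fold change of −0.76 ± 0.11 (edgeR adjusted p = 0.00120). SLC7A5, a transporter of large neutral amino acids that is also induced by amino acid stress, rose from 289 CPM ± 8.32 to 538 CPM ± 157, with 0.90 ± 0.17 (adjusted p = 0.00775). High-dose replicate 2, at 357 CPM, was the lowest of the 3 high-dose libraries for SLC7A5. At the medium and low doses 0 genes of any of the 10 other lists were called. Even so, the medium-dose mean of each gene of these lists called at the high dose lay between the vehicle and high-dose means. It was 12.1 CPM ± 0.346 for DKK1, 110 CPM ± 4.91 for SOX4, 18.3 CPM ± 0.657 for EPHB3 and 4.98 CPM ± 0.903 for NKD2. Of the 10 markers of colorectal epithelium and the 4 tested of 12 markers of other cell types, 0 were called at any dose. The summed level of the latter was 1660.2 to 1839.9 CPM in the vehicle and 1275 to 1899 CPM at the high dose, and LYZ, which is also on the list of differentiated epithelium, supplied most of it.

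For LGR5 the 2 tested genes of most like pattern, by Pearson correlation of log2 CPM over the 12 libraries among 13141 genes with a mean of at least 1 CPM, were MTMR10 (r = 0.958) and NPEPPSP1 (r = 0.955). For AXIN2 the first 3 were ZNF37A (r = 0.925), ENSG00000228327 (r = 0.905) and CARM1 (r = 0.901). Among the members, AXIN2 was most like TCF7 (r = 0.842) and ZNRF3 (r = 0.792), and LGR5 was most like RNF43 (r = 0.795). Without high-dose replicate 2 the first 2 of these were 0.778 and 0.729, and the last was 0.207, so the likeness of LGR5 and RNF43 rested on that library. For LGR5 with ZNRF3, TCF7 and AXIN2, r went from 0.625, 0.604 and 0.265 to −0.534, −0.304 and −0.532 when that library was left out. With ASCL2, MYC and SP5 it was negative both ways. The points share their libraries, and the values are a description.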

How the data were processed

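Total RNA of HT29 cells was sequenced in 12 libraries, 3 per group, after 24 h. The authors used Trim Galore for trimming, STAR for alignment and RSEM for quantification. The submitters' processing notes name FastQC 0.11.9, Trim Galore 0.6.5, STAR 2.7.3a and RSEM 1.3.3. The paper gives other versions of Trim Galore and STAR. The deposited values are RSEM expected counts, without normalization. The paper names the genome as GRCh38 but adds the name of another build in brackets. Of the identifiers, 93.2% are in GENCODE release 44, which does not by itself show the build used for alignment. The kit was directional, but the strand setting of the counting is not given in the sources used here, so reads of LGR5, MYC, RNF43, NKD1, LEF1 and TCF7 and of a gene whose exons overlap on the other strand cannot be told apart. RNF43 and AXIN2 also overlap another gene on their own strand, and RSEM shares reads between such genes. The treatment note of the samples describes another herb, Poria cocos, so samples were grouped by their titles, which name the vehicle or ACD.

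Expected counts were rounded to whole numbers and tested in edgeR 4.0.16 under R 4.3.3 (robust quasi-likelihood F-test, TMM scaling, genes kept by filterByExpr) in 1 fit of the 4 groups. Adjusted p-values are Benjamini-Hochberg values over the 15374 genes tested in each comparison. Calls needed more than a 1.5-fold change and an adjusted p below 0.05. Log2 CPM used a prior count of 2, and the biological coefficient of variation was 11.2%. Alternatives used DESeq2 1.42.0, other scaling and filters, a replicate block and fits that leave out libraries. The scripts were tested on simulated data. Transcript lengths and coordinates are from GENCODE release 44 and promoters from RefSeq. Tables were made with pandas 2.3.3 in Python 3.11.15.

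The members and the 10 other lists were chosen with earlier results of these data known. All members are named, and of the other lists each gene called at any dose, CTNNB1, APC and TCF7L2. EPCAM, KRT8, CDX1, the named markers of other cell types and MT-RNR1 are named as checks of the samples and were chosen after their values were seen. Of the genes of most like pattern to LGR5 and AXIN2, the 3 of highest r were taken, and 1 is not reported here.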

Additional observations from a re-analysis of the deposited data

Results flagged for a closer look

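For LGR5 all low-dose and medium-dose libraries lay above the vehicle mean and all high-dose libraries lay below it, although the high dose overlapped with single vehicle libraries. The difference between the high and low doses was −0.39 on the log2 scale (edgeR adjusted p = 0.158) and between the high and medium doses −0.53 (adjusted p = 0.112), with all high-dose libraries below all libraries of the other dose in both cases, and neither passed the threshold.

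Of the pathway and crypt lists, 4 genes were called between the high and low doses, beside 1.58% of all tested genes. They were 1 of 6 tested inhibitors, 2 of 13 other crypt base genes and 1 of 16 other Wnt targets. The remaining pathway lists, with 14, 17, 8 and 13 tested genes, had 0. Each of the 4 genes had an adjusted p below 0.05 and more than a 1.5-fold change. NKD2 was higher at the high dose by a log2 fold change of 1.12 (edgeR adjusted p = 0.00350) and SLC7A5 by 0.89 (adjusted p = 0.0115). EPHB3 had −0.75 (adjusted p = 0.00132) and SLC12A2 −0.76 (adjusted p = 8.09e-04). No explanation for these differences was tested.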

How the results depend on the processing

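Each count was recomputed under 22 alternatives, 21 of them planned and 1 chosen after seeing the data, which leaves out vehicle replicate 1, low-dose replicate 3 and high-dose replicate 2 (9 libraries). Members called stayed at 0 under all alternatives at the low dose and between the high and medium doses. At the high dose the count ranged from 0 to 1 when libraries were left out in turn. At the medium dose it was 1 with edgeR on 2 groups alone and with 9 libraries, and 0 to 1 over the libraries left out. Between the high and low doses it was 1 with 9 libraries. The gene was ASCL2 each time.

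Over all genes, calls at the high dose were 299 with DESeq2 and 172 with edgeR on 2 groups alone, 887 with no minimum fold change, 727 with 9 libraries and 310 to 768 over libraries left out. At the medium dose they were 164, 191, 246 with 9 libraries and 52 to 249. At the low dose they were 50 with DESeq2 on all libraries, 70 and 51 on 2 groups alone, 34 with no filter, 95 with 9 libraries and 10 to 109. The cause of these shifts was not tested, except that fewer libraries enter each of these fits on 2 groups or 9 libraries.

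With 9 libraries the sign turned for AXIN2 (0.087), RNF43 (0.11), NKD1 (0.18) and TCF7 (0.14) at the high dose, MYC at the medium dose (0.030), and ASCL2 (0.060), MYC (0.028) and SP5 (0.072) at the low dose. With no filter MYC at the medium dose was 0.0044. Over libraries left out, the high-dose range was −0.11 to 0.12 for AXIN2, −0.18 to 0.20 for RNF43, −0.21 to 0.025 for ZNRF3, −0.30 to 0.14 for NKD1, −0.15 to 0.13 for TCF7 and −0.088 to 0.24 for APC. It was −0.036 to 0.030 for MYC and −0.020 to 0.056 for TCF7 at the medium dose, and −0.056 to 0.0099 for MYC at the low dose. The adjusted p passed 0.05 for SP5 at the medium dose in 5 of 21 alternatives (lowest 0.0116), for LGR5 in 4 (lowest 0.00401) and for ASCL2 in 3 (lowest 0.0217). Of the called genes of other lists at the high dose, CD24 and NKD2 were called in 22 of 22 alternatives, EPHB3 and SLC7A5 in 21, SOX4 in 20, SLC12A2 in 18, DKK1 in 17 and TFF3 in 9.

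Replicate numbers are shared between groups, but same-numbered libraries did not deviate together (r from −0.50 to 0.37 over 18 pairs). With the replicate number as a block, 379, 75 and 17 genes were called at 500, 100 and 20 µg/mL, with 0 members, and 4 of 12 libraries correlated best with one of their own number.

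Depth limits LEF1, NKD1 and ASCL2 most, with at most 4, 39 and 94 counts per library.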
